A study of Mus musculus with 21 samples.

Results

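The 100 genes described here are those whose deposited expression values stood highest in preantral follicles, relative to 6 other stages of follicle growth in the mouse ovary. Each probe with a gene symbol was scored by its mean on the PREANTRAL arrays minus the highest of the 6 other stage means, on the authors' log2 scale. Probes had to be detected on all 3 PREANTRAL arrays (detection p under 0.05), each gene kept its highest scoring probe, and the 100 highest scores were taken. Of 15548 gene symbols on the array, 7455 could be scored, so the members are 100 of 7455. The scores ran from 0.49 to 1.96 with a median of 0.71, and 16 members reached 1, which is a 2-fold difference. These scores chose the members and are given as a description, with no test.

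RNA of female CD1 mice was hybridised to 21 Illumina bead arrays that cover 7 stages, with 3 arrays to a stage. PMD3 and PMD4 are whole ovaries of postnatal days 3 and 4, in which primordial follicles lie among every other ovarian cell. The growing stages are pools of isolated follicles: PRIMARY (day 10, 70 to 90 µm across), TLS, with 2 layers of granulosa cells (day 12, 100 to 130 µm), MLS, with several layers (day 16, 150 to 180 µm), and PREANTRAL (day 18, 200 to 300 µm). ANTRAL follicles (day 20, 400 to 600 µm) were taken after treatment of the mice with PMSG (pregnant mare serum gonadotropin), which has the activity of follicle stimulating hormone, so in ANTRAL the stage, the age and the hormone cannot be told apart. Whether the arrays of a stage stem from different animals is not given, so p-values measure the spread between these samples only. In pooled follicles, fewer cells of a type and less RNA per cell cannot be told apart.

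Some labels contradict the sample titles, by which the arrays were grouped. PREANTRAL repeat 2 carries an antral sample's source name, with its day, diameter and PMSG treatment. Its mean correlation across 14424 probes was 0.993 with the other PREANTRAL arrays, 0.974 with MLS and 0.950 with ANTRAL. Without it, 89 of the 100 members were chosen again. PRIMARY repeat 3 carries the stage tag of a PMD3 sample, while its mean correlation was 0.993 with the other PRIMARY arrays and 0.926 with PMD3. TLS repeat 2 gives ovary as its tissue, the description of ANTRAL repeat 2 numbers it 3, and the protocol field names no treatment although the ANTRAL source names give PMSG. Between 12363 and 13953 of 25697 probes were detected on an array. PMD3 repeat 2 and TLS repeat 2 stood somewhat apart from their own stages, with mean correlations of 0.968 and 0.964.

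As background, a follicle is an oocyte wrapped in granulosa cells, which proliferate in layers before a fluid-filled antrum forms. Follicle stimulating hormone, insulin-like growth factor and members of the transforming growth factor beta superfamily act on these cells, and the PI3-kinase pathway holds the forkhead factor FOXO1 in check. A theca layer with its own vessels forms around the follicle as it grows. Preantral follicles stand just before the step at which growth comes to depend on gonadotropin.

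The members' promoters were read first, to see whether known binding motifs recur in them. RefSeq promoters of build GRCm38.p6, 250 bases before to 50 after a gene's start, matched 77 members with 99 promoters, out of 32851 promoters in all. Both strands were searched for 7 motifs. The E-box CACGTG lay in 14.1% of the members' promoters and in 7.15% of all promoters. The TATA box TATAAA lay in 7.07% of the members' promoters, against 13.6% of all. The forkhead core TGTTTAC was in 2.02%, against 3.65%, and the cyclic AMP response element TGACGTCA in 1.01%, against 1.79%. The amino acid response element TGATGCAA was in 2.02%, against 0.895%. The endoplasmic reticulum stress element (CCAAT and CCACG spaced by 9 bases) was in 1.01%, against 0.119%, and the extended nuclear receptor site TCAAGGTCA in none, against 0.423%. The last bases of the stress element can overlap an E-box. These shares rest on 1 or 2 promoters for most motifs, are descriptions of letters in a window, and say nothing of a factor's binding. The E-box count held 13 genes, among them Slc38a5, Esr2, Cbs, Aldh18a1, Derl3 and Fkbp11.

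The 4 promoters that follow are shown because they hold the stress element, the forkhead core or the amino acid response element. Mlf1 also holds the forkhead core and is not shown. Derl3 and Herpud1 act in protein degradation at the endoplasmic reticulum, Txnip binds thioredoxin and restrains glucose uptake, and Nupr1 is a stress-induced chromatin protein. Nupr1 averaged 10.69 ± 0.40 in PREANTRAL, against 9.59 ± 0.19 in MLS and 9.73 ± 0.36 in ANTRAL (log2 levels as explained below, SD, n = 3 each). Its spread was wide in PRIMARY (8.20 ± 1.27) and TLS (9.01 ± 1.30), and TLS repeat 2, at 10.50, lay above PREANTRAL repeat 2, at 10.29. Each promoter runs 5′ to 3′ on the gene's strand, and the capitals mark the motif on either strand.
Derl3 (chr10:75893148-75893447, plus strand), stress element: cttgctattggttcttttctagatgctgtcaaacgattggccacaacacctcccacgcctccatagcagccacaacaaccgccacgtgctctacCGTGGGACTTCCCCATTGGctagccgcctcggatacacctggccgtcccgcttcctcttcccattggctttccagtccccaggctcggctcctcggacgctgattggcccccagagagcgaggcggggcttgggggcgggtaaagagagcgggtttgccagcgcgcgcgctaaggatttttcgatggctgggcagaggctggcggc
Txnip (chr3:96557707-96558006, plus strand), forkhead core: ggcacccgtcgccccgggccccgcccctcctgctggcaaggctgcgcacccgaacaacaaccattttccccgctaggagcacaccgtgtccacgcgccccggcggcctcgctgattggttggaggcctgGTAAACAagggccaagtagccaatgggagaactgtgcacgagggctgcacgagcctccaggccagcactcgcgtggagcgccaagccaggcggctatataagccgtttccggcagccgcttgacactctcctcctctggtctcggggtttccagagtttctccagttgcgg
Herpud1 (chr8:94386179-94386478, plus strand), amino acid response element: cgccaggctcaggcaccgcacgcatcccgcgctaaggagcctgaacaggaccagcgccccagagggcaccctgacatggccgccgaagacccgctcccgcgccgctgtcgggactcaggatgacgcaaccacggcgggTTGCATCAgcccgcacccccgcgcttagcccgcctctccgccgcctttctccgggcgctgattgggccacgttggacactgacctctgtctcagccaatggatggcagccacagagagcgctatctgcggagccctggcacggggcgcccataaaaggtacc
Nupr1 (chr7:126625421-126625720, minus strand), amino acid response element: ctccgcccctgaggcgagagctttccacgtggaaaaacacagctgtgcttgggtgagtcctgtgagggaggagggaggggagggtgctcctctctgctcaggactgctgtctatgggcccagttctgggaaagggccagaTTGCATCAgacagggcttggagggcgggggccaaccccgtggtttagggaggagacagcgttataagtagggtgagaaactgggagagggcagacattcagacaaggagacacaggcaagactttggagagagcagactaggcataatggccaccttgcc

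Levels below are log2 intensities after background correction and quantile normalization with limma's neqc, unless the authors' values are named. On this scale all 100 members again had their highest stage mean in PREANTRAL, which the rule favoured on the same arrays. Their levels there ran from 7.39 to 13.85 with a median of 10.26. The lowest signal counted as detected lay between 5.002 and 5.348 on an array. On the authors' values, 93 members had all 3 PREANTRAL arrays above the 18 others, as did 5.43% of the 7455 scored genes, and the rule used this contrast. A PREANTRAL mean above all others was found for 23.9% of those genes. Of the members, 84 were detected on all 21 arrays, and the fewest arrays on which a member was detected was 9.

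For most members the nearest level to PREANTRAL was that of MLS. Relative to PREANTRAL, the median member was 2.38 lower on the log2 scale in PMD3, 2.16 in PMD4, 1.92 in PRIMARY, 1.61 in TLS, 1.04 in MLS and 1.19 in ANTRAL. The stage second to PREANTRAL was MLS for 61 members and ANTRAL for 27 (63 and 26 on the authors' values). TLS was second for 5 members, PMD4 for 3, PMD3 for 2 and PRIMARY for 2. For 37 members each stage mean was above the one before, from PMD4 to PREANTRAL. The rule favoured the last of these steps, and no share over all probes is given, so this count is a description. Efl1, described below, instead differed little among the 6 other stages.

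**Figure D1:**
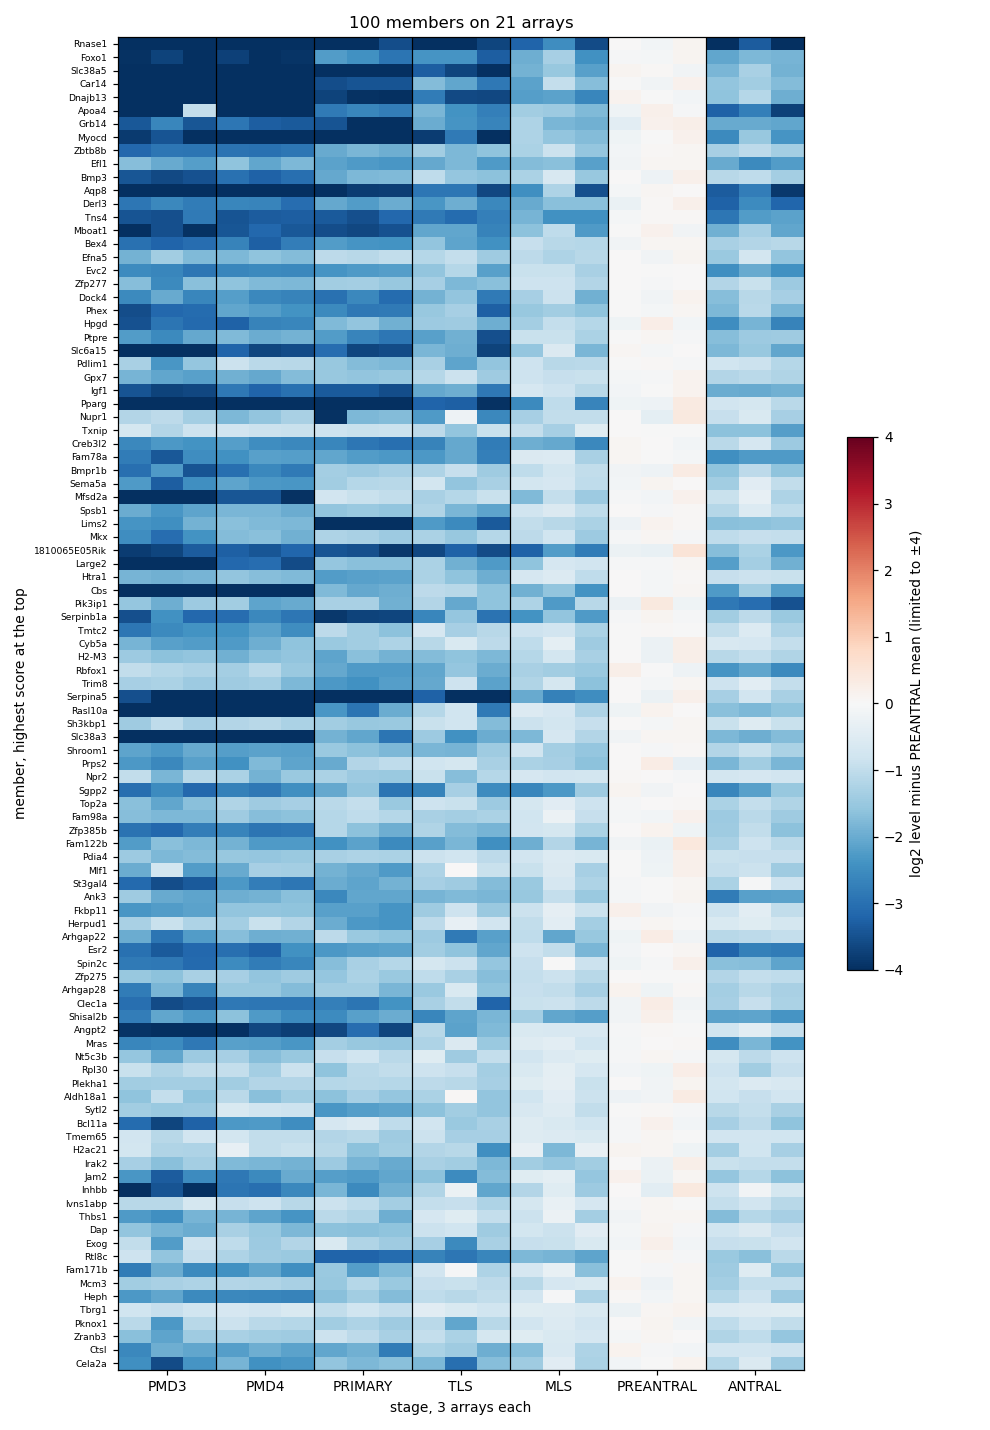
Level of each of the 100 members (rows, highest score at the top) on each of 21 arrays (columns, grouped by stage), as log2 level minus the gene's PREANTRAL mean, limited to 4 in each direction. The PREANTRAL columns are near white by construction, and blue deepens towards PMD3, where the median member was 2.38 below PREANTRAL.

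Rnase1, a secreted ribonuclease, had the highest score. It read 10.25, 10.12 and 10.35 on the PREANTRAL arrays, against 6.67 to 7.75 on the MLS arrays and 5.45 to 6.90 on the ANTRAL arrays. Its means in the earlier stages lay between 5.44 in TLS and 6.10 in PRIMARY, so that no other stage came near. The PREANTRAL mean of 10.24 ± 0.12 (SD, n = 3) was 8.53-fold that of MLS and 18.9-fold that of ANTRAL. The lowest ANTRAL array, at 5.45, lay near the lowest signal counted as detected. On the authors' log2 scale the differences were smaller, with means of 10.20 in PREANTRAL, 8.24 in MLS and 7.90 in ANTRAL.

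Foxo1, the forkhead factor that PI3-kinase signalling keeps out of the nucleus, came second. It averaged 12.45 ± 0.10 in PREANTRAL, against 10.55 ± 0.55 in MLS and 10.55 ± 0.14 in ANTRAL (SD, n = 3 each). The ranges did not overlap: PREANTRAL arrays lay between 12.39 and 12.57, MLS arrays between 10.04 and 11.13 and ANTRAL arrays between 10.39 and 10.67. Grb14, an adaptor that inhibits the insulin receptor, averaged 10.62 ± 0.36 in PREANTRAL, against 8.96 ± 0.37 in MLS and 8.58 ± 0.03 in ANTRAL.

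Slc38a5, a transporter of glutamine, serine and glycine, had a higher mean at each stage up to PREANTRAL, with 5.95 in PMD3, 6.86 in PMD4, 9.29 in PRIMARY, 10.16 in TLS, 11.99 in MLS, 13.85 in PREANTRAL and 12.19 in ANTRAL. Its PREANTRAL arrays read 13.97, 13.89 and 13.71, above the highest ANTRAL array at 12.55. Car14, a membrane carbonic anhydrase, had a like course, with 5.34 in PMD3, 5.80 in PMD4, 8.84 in PRIMARY, 10.10 in TLS, 10.73 in MLS, 12.32 in PREANTRAL and 10.76 in ANTRAL.

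Dnajb13, a co-chaperone known from sperm flagella and cilia, averaged 11.58 ± 0.12 in PREANTRAL, against 9.26 ± 0.24 in MLS and 10.01 ± 0.41 in ANTRAL. Apoa4, a lipid-carrying apolipoprotein of plasma, read 11.21, 11.61 and 11.36 in PREANTRAL, against 9.62 to 10.00 in MLS and 7.66 to 8.65 in ANTRAL. PMD3 repeat 3 read 10.43 for Apoa4 while the other PMD3 arrays read 4.67 and 4.55, undetected on both. Myocd, a coactivator of smooth and cardiac muscle genes, averaged 10.70 ± 0.16 in PREANTRAL, against 9.20 ± 0.26 in MLS and 8.56 ± 0.54 in ANTRAL.

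Zbtb8b, which encodes a zinc finger protein, averaged 11.49 ± 0.11 in PREANTRAL, against 10.27 ± 0.35 in MLS and 10.26 ± 0.18 in ANTRAL. Efl1, a GTPase that helps release a maturation factor from the large ribosomal subunit, was flat elsewhere. Its means in the 6 other stages lay between 7.20 and 7.62, and it read 9.32, 9.53 and 9.55 on the PREANTRAL arrays.

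**Figure D2:**
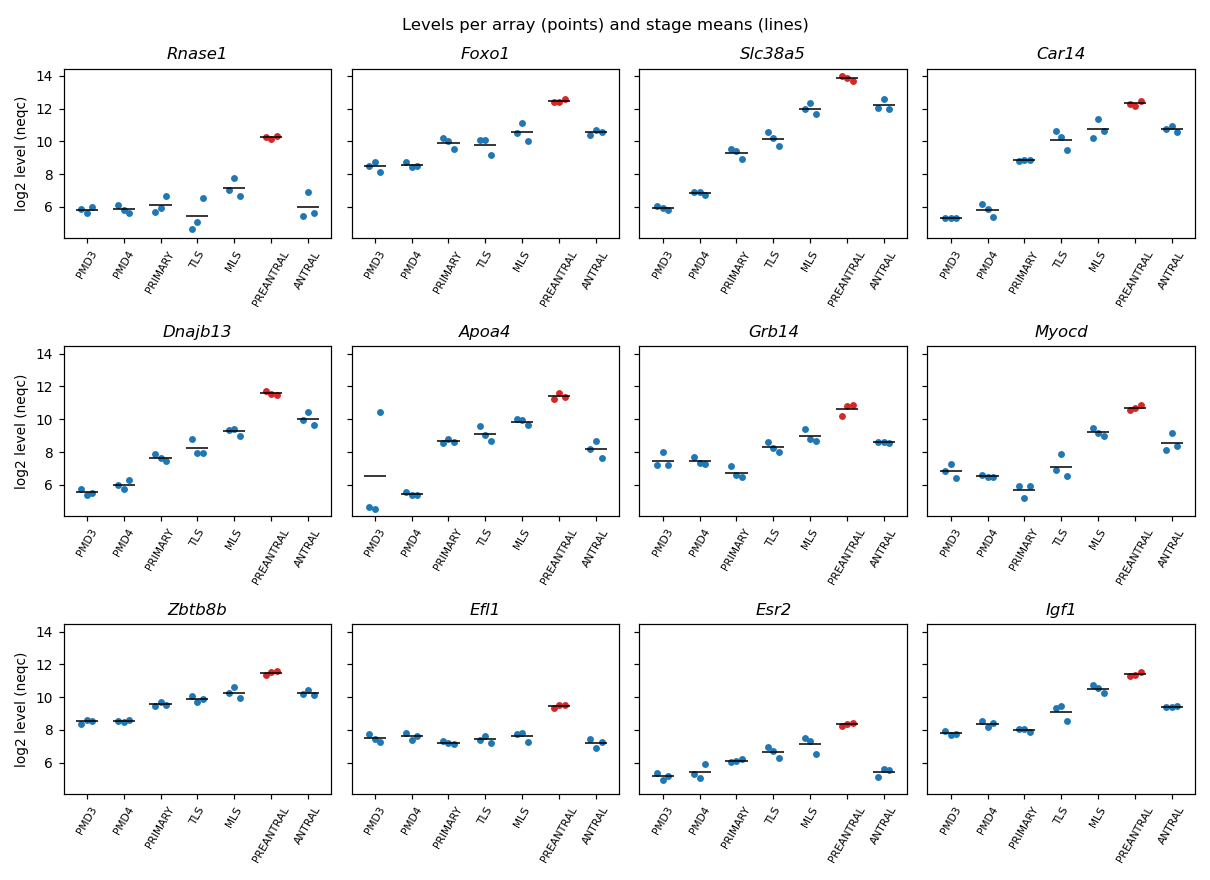
Level per array (points, red for PREANTRAL; log2, neqc) and stage mean (lines) of the 10 members with the highest scores and of Esr2 and Igf1, over the 7 stages in order of growth. Slc38a5 and Car14 climb from PMD3 to PREANTRAL, Efl1 is flat outside PREANTRAL, and 1 PMD3 array stands apart for Apoa4 at 10.43.

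At the edge of the 100, Zranb3 (0.496), Ctsl (0.491) and Cela2a (0.490) were the last members by score on the authors' log2 scale. Erlin1 (0.487), Diablo (0.486) and Zmat1 (0.485) came just after them. Members and non-members therefore meet without a gap.

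Other probes of the same genes give a second reading within the same RNA, on the arrays that chose the members, and are given as a description. The array holds 53 other probes of 34 members, of which 37, for 29 members, were detected on all PREANTRAL arrays. All 37 had their highest mean in PREANTRAL, as did 22.4% of the 9870 named probes detected on those arrays. Of the 16 that were not detected on all of them, 5 were highest in PREANTRAL and 11 in another stage. For the 37 detected probes, the PREANTRAL mean exceeded the next stage by 0.08 to 2.04, with a median of 0.62. Of these 37, 32 peaked less than the member probe. The course over the 7 stage means was most alike for the other probes of Htra1 (Pearson's r = 0.998), Cbs (0.997) and Sema5a (0.997). It was least alike for Tbrg1 (0.592), Ptpre (0.676) and 1 of the probes of Heph (0.768). The median over the 37 was 0.946, and the points share the same arrays.

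**Figure D3:**
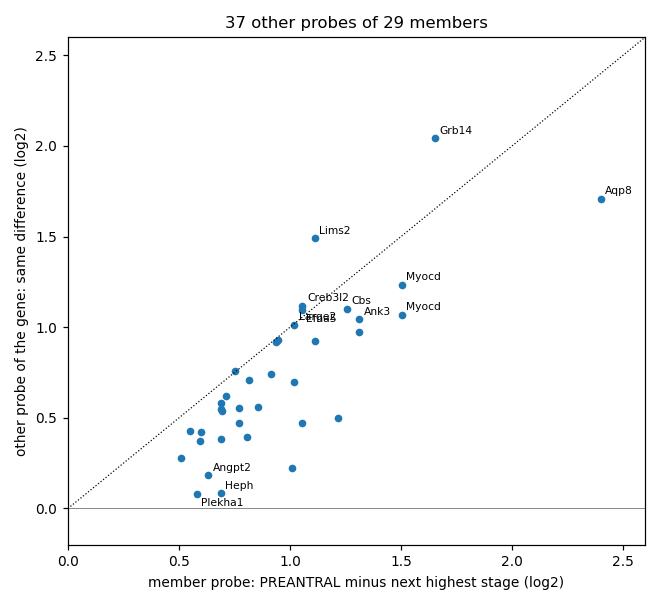
For 37 other probes of 29 members, the PREANTRAL mean minus the next highest stage mean (vertical axis, log2, neqc) is set against the same difference for the member probe (horizontal axis). All points lie above 0, 32 lie below the dotted line of equal differences, and Grb14 and Lims2 each have a probe above it.

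Markers of the cells in a follicle changed in level over the same stages. Of 20 granulosa cell markers on the array, 2 are members, Inhbb and Esr2. No member is among the markers of oocyte, theca, stroma and smooth muscle, endothelium, leukocytes or erythroid cells. The summed level of the 20 granulosa markers ranged over the 3 arrays from 15.75 to 15.91 in MLS, from 16.32 to 16.54 in PREANTRAL and from 16.13 to 16.56 in ANTRAL. The 18 oocyte markers summed to 16.24 to 16.58 in MLS, 14.41 to 14.93 in PREANTRAL and 12.74 to 13.68 in ANTRAL. The 16 stroma and smooth muscle markers summed to 15.11 to 15.33 in MLS, 14.49 to 14.87 in PREANTRAL and 14.93 to 15.07 in ANTRAL. The 11 endothelial markers summed to 12.26 to 12.67 in MLS, 11.72 to 12.20 in PREANTRAL and 12.72 to 12.90 in ANTRAL. The mean in PREANTRAL was above that in MLS for 14 of 20 granulosa markers and for 2 of 2 erythroid markers. The erythroid sum was 7.60 to 8.19 in PREANTRAL, against 6.17 to 6.57 in MLS. Of the 2 erythroid markers, Slc4a1 was detected on no array of either stage. The same held for Gatm of the granulosa list and Star of the theca list. The mean in PREANTRAL was below that in MLS for 18 of 18 oocyte, 14 of 16 stroma and smooth muscle, 10 of 11 endothelial and 8 of 10 theca markers. These counts are descriptions, and their part in the members' levels was not tested.

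**Figure D4:**
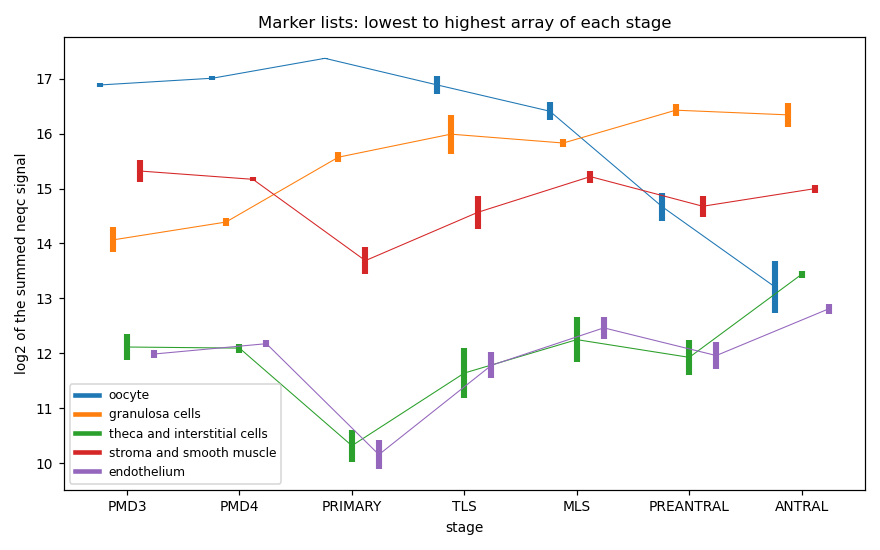
Log2 of the summed neqc signal of 5 marker lists over the 7 stages, with bars from the lowest to the highest array of a stage and lines through the middle of the bars. Oocyte markers fall after PRIMARY to 12.74 to 13.68 in ANTRAL, and stroma and endothelial markers have their lowest sums in PRIMARY.

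Comparisons of stages other than PREANTRAL were tested, since the score did not use the differences between these other stages. The score did set a ceiling on their means. It subtracted the highest of them, which on the authors' values was MLS for 63 members and ANTRAL for 26. The probes of the background were under no such ceiling, and its part in the counts below was not tested. Each comparison was fitted with limma over 13626 named probes on all 21 arrays, and a change means a Benjamini-Hochberg adjusted p under 0.05. The 3 comparisons share the MLS and PRIMARY arrays with one another. All 100 members passed the filter on detection by construction, since the rule required detection on all 3 PREANTRAL arrays. The other probes tested needed detection on any 3 arrays, and 9870 named probes were detected on all PREANTRAL arrays. The part of this difference in the counts was not tested.

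Most of the members were higher in MLS than in PRIMARY, by a count that depended on the arrays and the normalization used. Of 100 members, 59 were higher in MLS than in PRIMARY and 0 were lower, where 7.78% of all probes tested were higher and 8.26% lower. The median difference over the members was 0.75 on the log2 scale, against 0.00 over all probes. At an unadjusted p under 0.05, 76 members were higher and 1, Mfsd2a, lower. The count was 48 without PRIMARY repeat 3, whose labels disagree. Without MLS repeat 2 it was 40, the lowest with 1 array of these stages left out. The count was 70 without PMD3 repeat 2 and TLS repeat 2, which enter only the shared estimate of the spread. It was 54 without the PREANTRAL arrays, which also enter only that estimate. With median scaling in place of quantile normalization it was 35, and of all probes called 35.6% were then higher, against 48.5% by quantile normalization. Over the same step 12 of 16 stroma and smooth muscle markers, 10 of 11 endothelial markers and 6 of 10 theca markers rose, none of these fell, 5 of 20 granulosa markers rose while 2 fell, and 15 of 18 oocyte markers fell while none rose. The summed level of the stroma list was 15.11 to 15.33 in MLS and 13.44 to 13.93 in PRIMARY, and that of the endothelial list was 12.26 to 12.67 in MLS and 9.89 to 10.42 in PRIMARY, where Cdh5, Tie1 and Vwf were detected on no array. Their part in the members' differences was not tested.

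Myocd had the largest rise. It read 9.48, 9.14 and 8.98 in MLS, against 5.91, 5.20 and 5.90 in PRIMARY, an 11.5-fold difference (log2 3.53, SE 0.30, adjusted p = 7.71e-08). Other probes of Myocd were dimmer, with PREANTRAL means of 6.44 and 5.99, which exceeded the next stage by 1.24 and 1.07. Their MLS means thus lay no higher than near the lowest signal counted as detected, so they give no second reading of this rise. Lims2, an adaptor at focal adhesions, read 8.77, 8.63 and 8.49 in MLS, against 4.97, 5.41 and 5.43 in PRIMARY, where 1 of 3 arrays did not detect it (log2 3.36, SE 0.22, adjusted p = 3.25e-09). For both member probes the 2 stages were far apart on every array.

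Angpt2, a ligand that loosens vessels through the TIE2 receptor, read 9.99, 9.96 and 9.98 in MLS, against 6.98, 7.57 and 6.94 in PRIMARY (log2 2.81, SE 0.24). Slc38a5 rose 6.51-fold, with 11.95, 12.33 and 11.70 in MLS, against 9.56, 9.42 and 8.90 in PRIMARY. Igf1, the insulin-like growth factor made by granulosa cells of growing mouse follicles, rose 5.83-fold, with 10.74, 10.56 and 10.27 in MLS, against 8.04, 8.04 and 7.86 in PRIMARY (log2 2.54, SE 0.19, adjusted p = 1.67e-08). On the authors' values these rises were smaller, 1.56 for Myocd, 1.26 for Lims2, 1.74 for Angpt2, 2.44 for Slc38a5 and 1.85 for Igf1, and each still passed the test.

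Rtl8c, derived from a retrotransposon, was not detected on any PRIMARY array and was at least 2.07-fold higher in MLS. Aqp8, a water channel, was also undetected in PRIMARY and was at least 2.28-fold higher in MLS. For such genes the lowest detected signal of each array stands in for the undetected level.

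The roles below were assigned with the members known, so the counts by role are descriptions. Among 12 secreted signals, receptors and their regulators, 8 were higher in MLS than in PRIMARY. Angpt2 and Igf1 had the largest differences among them, and Inhbb, the beta B subunit of activin and inhibin, rose by 1.07 (SE 0.36), with adjusted p = 0.0478. That call was lost in 10 of 15 alternatives tried. Esr2, the estrogen receptor of granulosa cells, rose by 0.99 (SE 0.24), Bmp3, a bone morphogenetic protein, by 0.74 (SE 0.20), and Npr2, the receptor through which granulosa cells make cyclic GMP, by 0.67 (SE 0.21). The call of Esr2 was lost in 1 of 15 alternatives (without MLS repeat 1), that of Bmp3 in 3 and that of Npr2 in 8. A brighter probe of Esr2 differed by 0.52 (SE 0.20), which did not pass the test (adjusted p = 0.0833). Bmpr1b, a type I receptor for bone morphogenetic proteins, differed by 0.46 (SE 0.24), which did not pass the test. In the wider list of 18 genes of the transforming growth factor beta superfamily, 4 rose and 3 fell.

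Among 5 transporters and channels, 4 rose: Slc38a5, Slc6a15, Aqp8 and Slc38a3, the first, second and last of which carry amino acids. The exception was Mfsd2a, a carrier of lysolipids. Of 5 genes of protein folding and degradation in the endoplasmic reticulum, 4 rose, and Derl3 did not pass the test. Herpud1 rose by 1.29 (SE 0.21) and Fkbp11, a prolyl isomerase of the secretory pathway, by 1.54 (SE 0.19). Of 12 genes of small GTPase signalling and the cytoskeleton 9 rose, of 12 transcription regulators 4, of 13 metabolic enzymes 4, and of 4 genes of insulin and PI3-kinase signalling 2. Of 5 genes of DNA replication and chromatin, 1 rose, the helicase subunit Mcm3, a call that was lost in 6 of 15 alternatives. Top2a, a topoisomerase of dividing cells, differed by 0.51 (SE 0.19, adjusted p = 0.0737). In the list of 10 cell cycle genes to which it belongs, 0 passed limma's adjusted p, and at an unadjusted p under 0.05 2 were higher and 1 was lower in MLS.

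**Figure D5:**
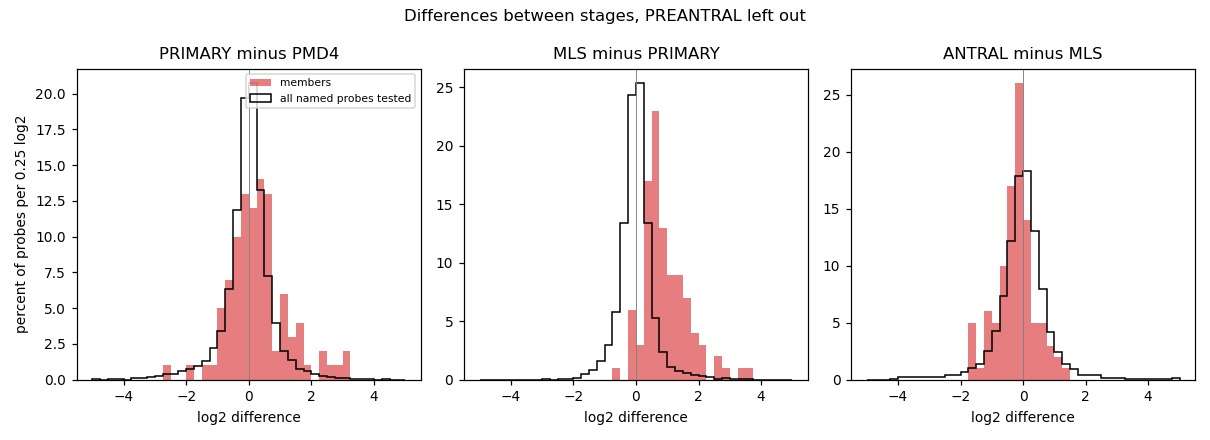
Distribution of the log2 difference between stages for the 100 members (filled) and for all 13626 named probes tested (outline), in percent of probes per bin. Most members lie to the right of 0 in MLS minus PRIMARY, with a median of 0.75, and sit about the outline in ANTRAL minus MLS, with a median of -0.17.

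From the whole ovary of day 4 to isolated primary follicles, 31 members were higher in PRIMARY than in PMD4 and 12 were lower, where 14.8% of all probes were higher, 15.2% lower and 30.0% changed in either direction. The median difference was 0.22 over the members and 0.01 over all probes. Without PRIMARY repeat 3, 27 were higher and 8 lower. The count of lower members was 6 without PRIMARY repeat 2, 7 without PMD4 repeat 1, 6 without PMD4 repeat 2 and 7 with median scaling. This comparison also sets isolated follicles against a whole organ: 13 of 20 granulosa markers rose and none fell, and of 18 oocyte markers 11 rose and 3 fell. Conversely, 11 of 16 stroma and smooth muscle markers, 11 of 11 endothelial markers and 7 of 7 leukocyte markers fell. Their part in the members' differences was not tested.

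Apoa4, Car14, Rasl10a, Mfsd2a and Slc38a5 are the members higher in PRIMARY with the largest differences among those that did not overlap. Apoa4 read 8.58, 8.78 and 8.64 in PRIMARY, against 5.57, 5.41 and 5.35 in PMD4 (log2 3.22, SE 0.88, adjusted p = 0.00769), and on the authors' values it did not pass the test (adjusted p = 0.0623). Its SE pools all 21 arrays, including the PMD3 array that stood apart. Car14 read 8.79, 8.88 and 8.86 in PRIMARY, against 6.16, 5.85 and 5.39 in PMD4, an 8.25-fold difference (adjusted p = 1.67e-08).

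Rasl10a, a small GTPase of the RAS family, read 8.28, 7.70 and 8.64 in PRIMARY, against 5.55, 4.80 and 5.38 in PMD4, where 1 array did not detect it (log2 2.96, SE 0.36). Mfsd2a read 10.57, 10.44 and 10.33 in PRIMARY, against 7.89, 7.89 and 7.36 in PMD4 (log2 2.73, SE 0.24), and Slc38a5 was 5.38-fold higher in PRIMARY. None of these groups overlapped. On the authors' values the differences were 1.29 for Car14, 1.01 for Rasl10a, 1.92 for Mfsd2a and 1.32 for Slc38a5, each past the threshold.

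Some members were not detected in the young ovary. Cbs, which makes cystathionine from homocysteine and serine, was undetected on every PMD3 and PMD4 array and was at least 4.22-fold higher in PRIMARY than in PMD4. Slc38a3, a further glutamine transporter, was undetected on the same arrays and at least 2.57-fold higher in PRIMARY. Foxo1 was 2.57-fold higher in PRIMARY (log2 1.36, SE 0.26), with 10.23, 10.03 and 9.52 in PRIMARY, against 8.73, 8.44 and 8.52 in PMD4. Pparg, a nuclear receptor for lipids, rose by 1.58 (SE 0.32) and by 0.52 on the authors' values, which did not pass the test. Bmpr1b rose by 1.43 (SE 0.24).

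The members lower in PRIMARY were led by Lims2, with 4.97, 5.41 and 5.43 in PRIMARY, against 8.07, 7.97 and 7.96 in PMD4 (log2 -2.73, SE 0.22). Rtl8c, undetected in PRIMARY, was at least 3.00-fold lower there than in PMD4, where it read 6.90, 6.70 and 6.62. Sytl2, an effector of vesicle transport, read 7.41, 7.53 and 7.64 in PRIMARY, against 9.14, 8.94 and 8.90 in PMD4. Herpud1 fell by 1.08 on the log2 scale (SE 0.21). Serpinb1a, an inhibitor of neutrophil proteases, read 5.09, 5.24 and 5.28 in PRIMARY, against 5.90, 6.38 and 6.04 in PMD4. Only 2 of 3 PRIMARY arrays detected Serpinb1a, near the lowest signal counted as detected. On the authors' values Serpinb1a differed by -0.18 and did not pass the test, as in 6 of 15 alternatives in all, and the other 4 passed with smaller differences.

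Lims2, Sytl2, Herpud1 and Myocd had the lowest of their 7 stage means in PRIMARY, a group that this comparison shares with the one of MLS. Myocd read 6.61, 6.48 and 6.48 in PMD4, which places the PRIMARY arrays 0.85 lower (SE 0.30, adjusted p = 0.037), a call that was lost in 7 of 15 alternatives, the authors' values among them. By role, 6 of 12 signals and receptors were higher in PRIMARY and 1 was lower. Of 13 metabolic enzymes 7 were higher, of 5 transporters 3, and of 12 transcription regulators 5 were higher and 1 lower. Of 12 genes of GTPase signalling and the cytoskeleton, 3 were higher and 3 lower.

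Between ANTRAL and MLS, the stages on either side of PREANTRAL, fewer members were higher than lower. Of 100 members, 7 were higher in ANTRAL than in MLS and 18 were lower, where 16.3% of all probes were higher, 17.0% lower and 33.3% changed in either direction. The share of lower members is near the background, and that of higher members is below it. The rule held both stage means of a member below PREANTRAL, and its part in these shares was not tested. The median difference was -0.17 over the members and 0.00 over all probes. Without MLS repeat 3, 4 members were higher. Without the PREANTRAL arrays in the estimate of the spread, 6 were higher and 17 lower. Over the same step 17 of 18 oocyte markers fell, and of the granulosa markers 5 rose and 6 fell. Of 10 theca markers, 3 rose and 1 fell, with a median of -0.21, while the summed list stood at 13.38 to 13.50 in ANTRAL, against 11.84 to 12.66 in MLS. Their part in the members' differences was not tested.

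Apoa4 differed by -1.70 on the log2 scale and did not pass limma's test (adjusted p = 0.148). Among the members past the threshold, Esr2 had the largest fall. It read 5.14, 5.64 and 5.54 in ANTRAL, against 7.49, 7.35 and 6.51 in MLS, a log2 difference of -1.68 (SE 0.24, adjusted p = 1.21e-05). The lowest ANTRAL array did not detect it, and its ANTRAL mean of 5.44 stood near 5.17 in PMD3 and 5.44 in PMD4. A brighter probe of Esr2 was detected on all of these arrays and read 9.44, 9.94 and 9.17 in ANTRAL, against 11.30, 11.32 and 10.98 in MLS (log2 -1.69, SE 0.20, adjusted p = 6.997e-07), so that both probes fell by a like amount. Mras, a GTPase related to RAS, read 8.64, 9.31 and 8.76 in ANTRAL, against 10.62, 10.72 and 10.33 in MLS (log2 -1.65, SE 0.21).

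Pik3ip1, an inhibitor of PI3-kinase, read 5.614, 5.437 and 4.997 in ANTRAL, against 7.24, 6.20 and 7.36 in MLS (log2 -1.58, SE 0.30), and 1 ANTRAL array did not detect it. Fam78a, a protein of little known function, read 9.97, 10.18 and 10.16 in ANTRAL, against 11.84, 11.88 and 11.13 in MLS. Evc2, a protein at the base of the cilium that takes part in hedgehog signalling, read 9.19, 9.61 and 9.21 in ANTRAL, against 10.74, 10.74 and 10.33 in MLS (log2 -1.27, SE 0.20). Esr2, Mras, Pik3ip1, Fam78a and Evc2 did not overlap between the stages. On the authors' values Esr2 fell by 0.48 and Pik3ip1 by 0.42, both past the threshold.

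Further members lower in ANTRAL were Derl3 (log2 -1.19, SE 0.21), Igf1 (-1.10, SE 0.19), the prostaglandin dehydrogenase Hpgd (-1.19, SE 0.23) and Txnip (-0.92, SE 0.21), named here after their values were seen. Igf1 read 9.41, 9.39 and 9.48 in ANTRAL, against 10.74, 10.56 and 10.27 in MLS. Txnip and Pik3ip1 are the 2 of 4 genes of insulin and PI3-kinase signalling that fell. The others, Grb14 (-0.38) and Plekha1 (-0.06), did not pass the test. Foxo1, which is not in that set, differed by -0.01 (SE 0.26) and did not pass it either.

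The members higher in ANTRAL included Serpina5, an inhibitor of serine proteases, with 7.92, 8.50 and 7.96 in ANTRAL, against 7.23, 6.57 and 6.79 in MLS (log2 1.26, SE 0.25, adjusted p = 0.000461). Creb3l2, a transcription factor cleaved at the Golgi that raises secretory capacity, read 9.11, 9.52 and 8.74 in ANTRAL, against 8.22, 8.12 and 7.60 in MLS (log2 1.14, SE 0.22). Dnajb13 rose by 0.75 (SE 0.23), and without MLS repeat 3 or 1 ANTRAL array that call was lost. Irak2, a kinase of interleukin 1 signalling, rose by 0.52 (SE 0.17), and Rtl8c by 0.50 (SE 0.19, adjusted p = 0.0454). The call of Rtl8c was lost in 11 of 15 alternatives, and that of Irak2 in 4, median scaling among them. Pparg rose by 1.21 (SE 0.32), with ANTRAL arrays at 10.99, 11.06 and 10.68 and MLS arrays at 9.22, 10.76 and 9.11, which overlap, and the call was lost without MLS repeat 3.

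By position in the RefSeq table, 10 members lie on the X chromosome: Slc38a5, Bex4, Phex, Sh3kbp1, Prps2, Fam122b, Spin2c, Zfp275, Rtl8c and Heph. Of the genes that could be scored, 3.26% lie there. Within 1 megabase of one another lie Car14, Txnip and H2ac21 on chromosome 3, Tns4 and Top2a on 11, Zfp277 and Dock4 on 12, and Cbs and Pknox1 on 17. The other neighbours are Pdlim1 and Aldh18a1 on 19, Sema5a and Dap on 15, Htra1 and Plekha1 on 7, and Fam122b and Rtl8c on X. No test was made of either pattern.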

How the data were processed

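Intensity was deposited per probe and array without background correction or normalization; per the file headers it is the average bead signal. The detection p-value beside it, per the file headers, tests a probe against negative control beads. A further deposited table holds the authors' log2 values; the submitters' processing notes name limma, and the normalization is not given in the sources used here. Background correction and quantile normalization used neqc (R 4.3.3, limma 3.58.1, offset 16, negative controls inferred from detection p). Of the ANTRAL columns, 2 share 1 name and are called repeats a and b, listed after repeat 1. Probes with 1 gene symbol, 21857 of 25697, and a detection p under 0.05 on at least 3 arrays were tested. A limma fit to all 21 arrays gave each stage its mean, two-sided, with adjustment over 13626 probes and a threshold of 0.05. The fit was also run on simulated arrays with independent noise and planted changes, a check of the code that does not bear on the calls made here. With 3 arrays per group, the number of arrays limits the precision.

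Members, lists and roles were chosen with earlier results of these data known. Text names the 10 highest scores, per comparison up to 5 largest rises and falls with no overlap, members in fixed lists, the edge of the 100, and, by role, further members named after their values were seen. Alternatives were other normalizations, the authors' values, other filters, arrays left out and a replicate block.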

Additional observations from a re-analysis of the deposited data

How the results depend on the processing

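With the rule applied to neqc values, 63 of the 100 members were chosen again, and leaving out 1 PREANTRAL array gave 89 to 93. All 100 had their highest mean in PREANTRAL under each setting tried. The rule chose them by this contrast on the same arrays, so that count is a description. On neqc values it also held for 22.4% of the 9870 named probes detected on all PREANTRAL arrays. With median scaling, 35 members changed between MLS and PRIMARY, all higher, and 7 were lower in PRIMARY than in PMD4. Leaving out 1 array of MLS or PRIMARY gave 40 to 58 members higher in MLS, the lowest without MLS repeat 2. Leaving out 1 array gave 4 to 10 members higher in ANTRAL than in MLS, the lowest without MLS repeat 3. Leaving out arrays gave 6 to 13 members lower in PRIMARY than in PMD4, 6 without PRIMARY repeat 2 or PMD4 repeat 2, 7 without PMD4 repeat 1 and 13 without PMD3 repeat 2 and TLS repeat 2 together. The causes were not tested. No member's called difference changed sign under an alternative. Same-numbered arrays did not deviate together (correlations of -0.19 to 0.14). With 3 arrays per stage, and an ANTRAL number that the labels contradict, this cannot decide whether the numbers pair the samples. With the replicate block 59 members changed in MLS against PRIMARY and 43 in PRIMARY against PMD4; for ANTRAL against MLS, fitted on the authors' values, it gave 30. Dim probes near the lowest detected signal limit what can be measured.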

Other observations

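Of 571 probes without a gene symbol that were detected on all PREANTRAL arrays, 8 scored above the lowest member. The highest scored 0.865 on the authors' log2 scale, with a mean of 11.01 in PREANTRAL, against 10.14 in PMD4, the next highest stage, 10.02 in MLS and 9.86 in ANTRAL.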
